A study of Mus musculus with 3 samples.

Results

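Cluster 12 of the E14.5 tail was the set of cells that carry the code 12 in the cluster row of the deposited tail count table. It held 128 of 2052 tail cells (6.24%, 95% Clopper-Pearson interval 5.23 to 7.37%), out of 15827 cells in the 3 libraries of the series. The tail library was made from tails that were cut with a scalpel from embryos of ScxGFP mice at E14.5. ScxGFP mice carry a green fluorescent protein driven by regulatory sequence of the tendon gene *Scx*. Tails were dissociated with Trypsin and Collagenase and depleted of dead cells by Annexin V before droplet capture. The mice were on a C57BL6 background and embryos of both sexes were used. The labels name no treatment of the tails, and the number of embryos in the library is not given in the sources used here. The other libraries came from mouse embryonic stem cells, taken as embryoid bodies to paraxial mesoderm (D6 PM) or, with TGFβ1 and the hedgehog agonist SAG given after that stage, to tenocytes (D10 culture). They were used here only to count shared barcodes. Each origin had 1 library, so differences between cells of the tail have no replicate check and no test was run. The intervals below cover counting error of unique molecular identifiers (UMIs) only, and since the clusters were drawn from these same genes, the comparison of the cluster with other cells is a description.

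Red blood cells of the mouse embryo arise in 2 waves. Primitive erythroblasts form in the yolk sac, enter the circulation while still nucleated and make embryonic globins (*Hbb-y*, *Hbb-bh1*, *Hba-x*). Definitive erythroblasts mature in the fetal liver around macrophages, make adult globins (*Hbb-bs*, *Hbb-bt*, *Hba-a1*, *Hba-a2*), expel their nucleus and leave as reticulocytes, which still hold RNA and lose their mitochondria and ribosomes as they mature.

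The adult beta-globin genes stand in the same locus as the embryonic *Hbb-y*, and their upstream sequence is shown because cluster 12 and the other haemoglobin-rich cluster of the tail differed in which of these globin RNAs they held. The windows run from 250 bases before to 50 after the annotated start, 5′ to 3′ on the gene's strand, from RefSeq on GRCm38.p6. *Hbb-bt* lies at chr7:103813874-103814173 (minus strand), *Hbb-bs* at chr7:103827879-103828178 (minus), *Hbb-y* at chr7:103853158-103853457 (minus), *Hba-a1* at chr11:32283422-32283721 (plus) and *Alas2*, the erythroid first enzyme of haem synthesis, at chrX:150547167-150547466 (plus). Capitals mark 3 words, sought on both strands. The first is AGATAA, which GATA1 and its relatives can bind. The second is CCNCACCC, where N is any base, which Krüppel-like factors can bind. The last is CCAAT, a common promoter word.
Hbb-bt: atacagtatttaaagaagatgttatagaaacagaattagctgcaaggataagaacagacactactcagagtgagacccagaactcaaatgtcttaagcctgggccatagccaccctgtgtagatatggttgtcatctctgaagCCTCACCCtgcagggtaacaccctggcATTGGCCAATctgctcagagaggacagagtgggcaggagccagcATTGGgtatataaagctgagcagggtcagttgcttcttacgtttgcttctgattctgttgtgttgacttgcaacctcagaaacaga
Hbb-bs: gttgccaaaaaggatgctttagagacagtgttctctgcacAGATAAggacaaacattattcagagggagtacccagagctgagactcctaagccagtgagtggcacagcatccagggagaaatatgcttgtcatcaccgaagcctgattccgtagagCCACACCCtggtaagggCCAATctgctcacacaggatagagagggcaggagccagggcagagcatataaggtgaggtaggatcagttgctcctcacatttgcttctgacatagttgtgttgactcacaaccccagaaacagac
Hbb-y: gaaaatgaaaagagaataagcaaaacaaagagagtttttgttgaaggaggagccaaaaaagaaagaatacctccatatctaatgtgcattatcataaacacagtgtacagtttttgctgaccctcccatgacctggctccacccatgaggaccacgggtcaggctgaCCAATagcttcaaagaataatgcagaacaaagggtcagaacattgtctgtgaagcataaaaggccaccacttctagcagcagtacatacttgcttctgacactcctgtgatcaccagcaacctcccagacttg
Hba-a1: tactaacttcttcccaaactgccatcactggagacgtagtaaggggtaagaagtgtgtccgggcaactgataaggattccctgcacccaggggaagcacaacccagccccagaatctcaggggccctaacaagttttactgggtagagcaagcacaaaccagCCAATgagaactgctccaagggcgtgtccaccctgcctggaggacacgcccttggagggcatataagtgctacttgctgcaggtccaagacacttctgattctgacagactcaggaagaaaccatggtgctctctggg
Alas2: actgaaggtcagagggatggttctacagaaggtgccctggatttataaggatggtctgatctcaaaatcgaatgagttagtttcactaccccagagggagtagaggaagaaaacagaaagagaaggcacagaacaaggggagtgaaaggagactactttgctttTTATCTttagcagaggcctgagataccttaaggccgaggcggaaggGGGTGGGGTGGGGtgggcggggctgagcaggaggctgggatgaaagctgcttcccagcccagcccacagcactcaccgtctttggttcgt

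CCNCACCC was found in the windows of *Hbb-bt*, *Hbb-bs* and *Alas2*, and in 16.6% of the 32851 windows of this length. AGATAA was found in those of *Hbb-bs* and *Alas2*, and in 11.2% of all windows. CCAAT was found in all printed windows but that of *Alas2*, and in 37.4% of all windows. These matches are descriptions of the letters in the windows, and a window without a match only lacks these letters.

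The markers of the label were high in the cluster. Of 11 erythroid markers, 10 were in the table and each stood at least 4-fold above the other 1924 tail cells with all UMIs as the total, with the smallest ratio, 7.28-fold, for *Klf1*. Of these 10, 7 had the 100 UMIs over both groups that a gene needed to be tested below, and *Klf1* was not among them. Of all 13210 genes tested, 0.575% were at least 4-fold higher. The marker lists of 10 other cell types summed to 194 UMIs over 118 genes, of which 74 were at 0. Of all 13210 genes tested, 7265 were also at 0 in the cluster, so a marker at 0 says little at this depth. Macrophage markers gave 1 UMI over 14 genes, and megakaryocyte markers gave none over 13. Markers of tendon mesenchyme gave 116 UMIs, 31 of them in 1 cell with 605 detected genes. The ScxGFP transcript, with 940 UMIs in the other tail cells, was at 0 in the cluster, which allows up to 2.82 CPM, the UMIs of a gene scaled to the total of its group, against 31.0 in the other cells. With haemoglobin genes left out of the total, the same count of 0 allows up to 20.4 CPM against 31.9, a smaller gap. *Scx* itself was detected in 7.09% of cells (3.29 to 13.0) after thinning to 500 UMIs without haemoglobin genes and in 17.4% (15.7 to 19.2) of the other tail cells. In cluster 6 the share was 5.63% (1.56 to 13.8). Thinned to 3000 UMIs of all genes, the gap was wider, at 3.2% (0.879 to 7.99) in cluster 12 and 29.3% (27.2 to 31.4) in the other tail cells.

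Cells of the cluster were poor in genes, and their median number of UMIs was below that of the other tail cells. They held between 2508 and 14690 UMIs, with a median of 8391.5 against 13975 in the other tail cells, and between 201 and 1573 detected genes, with a median of 328.5. The other haemoglobin-rich cluster, cluster 6, was also poor in genes, with a median of 487 and 56 of its 71 cells under 1000. Clusters outside these 2 had median gene numbers of 1119 to 6033.5. The doublet caller marked 0 cells of the cluster, but only 0.439% of all tail cells against an expected 6%, so its calls say little. Only 2 cells had more than 700 genes, 1 with 1573 and 1 with 821. Some results below are also given without them, but those on differences within the cluster are not.

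Haemoglobin genes took 86.1% of the UMIs of the cluster (86.1 to 86.2), 914807 of 1061961. Per cell, the share ran from 51.5% to 93.1%, with a median of 87.3%. In 5 cells it lay below 70%, between 51.5% and 60.0%, and the lowest of the other 123 cells stood at 75.1%. These 5 cells held 2508, 2537, 2707, 3831 and 13648 UMIs, against a cluster median of 8391.5, and the last is the cell with 1573 genes. Every other cluster but 1 had a median share between 0.0167% and 0.0757%. The exception was cluster 6, a blood cluster of 71 cells with a median share of 83.1%. Cluster 12 held 52.2% of all haemoglobin UMIs of the tail library and cluster 6 held 40.1%.

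**Figure D1:**
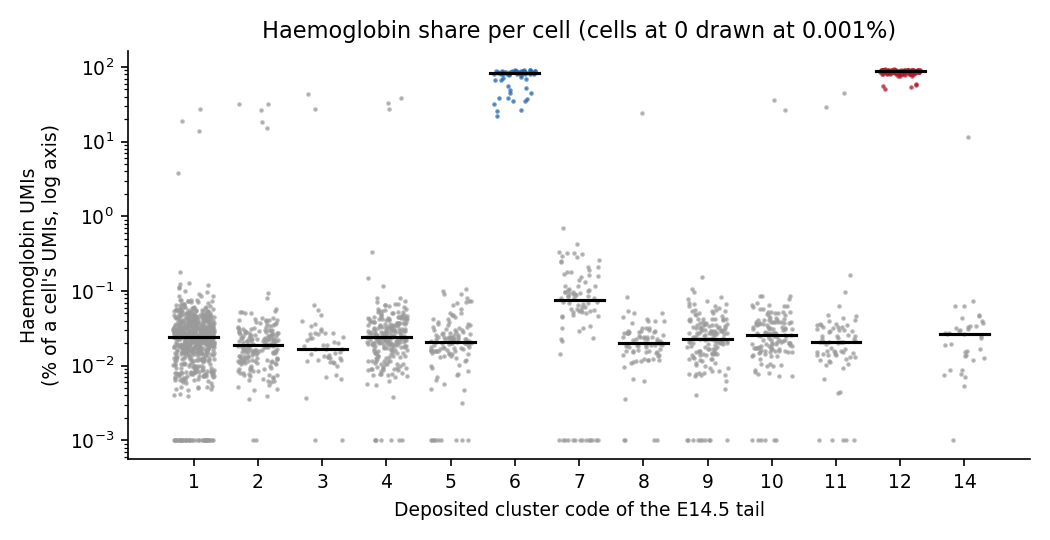
Each point is a cell of the E14.5 tail, placed by its deposited cluster code (x axis) and by the percent of its UMIs that fall in haemoglobin genes (y axis, log scale), with the median of each cluster as a bar and cells at 0 drawn at 0.001%. Clusters 12 (red) and 6 (blue) have medians of 87.3% and 83.1%, and the other clusters have medians below 0.1%.

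The haemoglobin of the cluster was of the adult type. *Hbb-bs*, an adult beta-globin gene, had from 537 to 7172 UMIs per cell, with a median of 4121. *Hbb-bt*, its neighbour and the other adult beta-globin gene, had from 265 to 2752, with a median of 1835. *Hba-a1*, an adult alpha-globin gene, ran from 338 to 1871 with a median of 1084, and *Hba-a2* from 100 to 498 with a median of 285.5. All 4 were present in every cell. *Hbb-bs* thus gave 55.9% of the haemoglobin UMIs, *Hbb-bt* 24.9%, *Hba-a1* 15.1% and *Hba-a2* 3.98%.

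Adult beta-globin UMIs outnumbered adult alpha-globin UMIs in every cell, with a ratio between 1.64 and 6.66 and a median of 4.36. The ratio of *Hbb-bs* to *Hbb-bt* was 2.25 over the cluster and lay between 1.57 and 3.27 in single cells. The counting dropped reads with several mapping places, and these pairs are near copies: 58.3% of the 50-base words in *Hbb-bt* transcripts also occur in those of *Hbb-bs*, and 89.3% of those in *Hba-a2* also occur in those of *Hba-a1* (GENCODE vM21). The division of UMIs within each pair, and between alpha and beta, is therefore uncertain.

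Embryonic globin UMIs were few, and those of *Hbb-y* were about as many per cell as in cells outside the blood clusters. *Hbb-y*, the main embryonic beta-like globin, had 171 UMIs over the cluster, with at most 6 in a cell and a mean of 1.34 per cell. In the 1833 cells of neither blood cluster with fewer than 50 haemoglobin UMIs, the mean of *Hbb-y* was 1.09 UMIs per cell, at a median depth of 13936 UMIs. At least 1 *Hbb-y* UMI was found in 74.2% of cluster cells and in 63.0% of those other cells. *Hba-x*, the embryonic alpha-like globin, had a mean of 0.242 UMIs per cell in the cluster and 0.122 in those other cells. It made up 0.0177% of the alpha-like UMIs of the cluster (0.0120 to 0.0252) and 44.0% of those of cluster 6 (43.8 to 44.3).

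*Hbb-bh1*, an early embryonic beta-like globin, differed from this pattern. It had 263 UMIs in the cluster, 199 of them in 1 cell and 17 in the next, and was detected in 41 of 128 cells. In the 1833 other cells it had 4 UMIs in all. Cluster 6 held more, with 687 UMIs in 49 of 71 cells and a mean of 9.68 per cell, against 2.05 in cluster 12. *Hbb-bh1* UMIs were 1.54 times those of *Hbb-y* in cluster 12, but 0.376 times without the cell with 199, and 0.00143 times in cluster 6. Without that cell, the remaining 64 *Hbb-bh1* UMIs over 127 cells were 18.5-fold (14.1 to 23.9) above the other tail cells with haemoglobin genes left out of the total. *Hbb-bh0* was at 0 and *Hbb-bh2* had 3 UMIs. *Hbq1a* and *Hbq1b*, the theta-like genes of the alpha locus, had 64 and 41 UMIs, spread over 49 and 30 cells.

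Embryonic genes together gave 0.0591% of the beta-like globin UMIs of the cluster (0.0537 to 0.0649). It was 0.0323% without the cell richest in *Hbb-bh1*, in which the share was 3.38%. The median over cells was 0.0237% and the second highest cell stood at 0.272%. In cluster 6 the share was 86.6% (86.5 to 86.7) and the median over cells 93.2%, but 7 of its 71 cells stood below 10%, at 0.0226% to 0.0960%, within the range of cluster 12. In other measures these 7 cells were unlike it, with 2569 to 6487 detected genes and 22.0% to 45.4% of UMIs in haemoglobin genes. No cell of cluster 12 was above 10%.

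**Figure D2:**
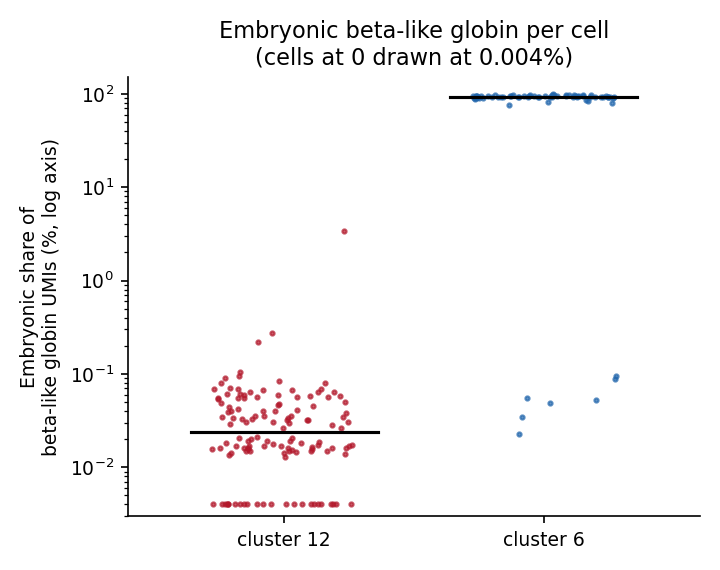
Each point is a cell, placed by the share of embryonic genes among its beta-like globin UMIs (y axis, percent, log scale) for clusters 12 (128 cells) and 6 (71 cells), with medians as bars and cells at 0 drawn at 0.004%. The medians are 0.0237% and 93.2%, and 7 cells of cluster 6 lie among the values of cluster 12 on this measure.

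Beyond haemoglobin, the total used decided whether the median erythroid list gene lay above or below the other tail cells. With all UMIs as the total, 31 of 163 erythroid list genes with at least 100 UMIs (19.0%) were at least 4-fold higher in the cluster, against 76 of all 13210 genes (0.575%). On that scale 9645 genes (73%) were at least 4-fold lower, 69 of the 163 erythroid genes (42.3%) among them. Leaving haemoglobin genes out of the total of every cell raised each ratio 7.02 times. Then 74 erythroid genes (45.4%) were at least 4-fold higher against 315 of all genes (2.38%), and 23 (14.1%) were at least 4-fold lower against 3229 (24.4%). With the 95% interval wholly past 4-fold, 61 erythroid genes (37.4%) were higher against 226 of all genes (1.71%), and 2 were lower against 599 (4.53%). Genes at 0 were set to a floor of 3 counts over the group. The median ratio of the 163 genes was then 3.16 with haemoglobin left out. It was 0.694 over the 13201 genes tested that were not haemoglobin genes. With genes at 0 kept at 0, the erythroid median was 2.63, against 0 over those 13201 genes. Of the 13201, 7264 had no UMI in the cluster. With all UMIs as the total these medians of the erythroid genes were 0.450 and 0.374, below the other tail cells. Those of the 13201 genes were 0.0989 and 0.

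**Figure D3:**
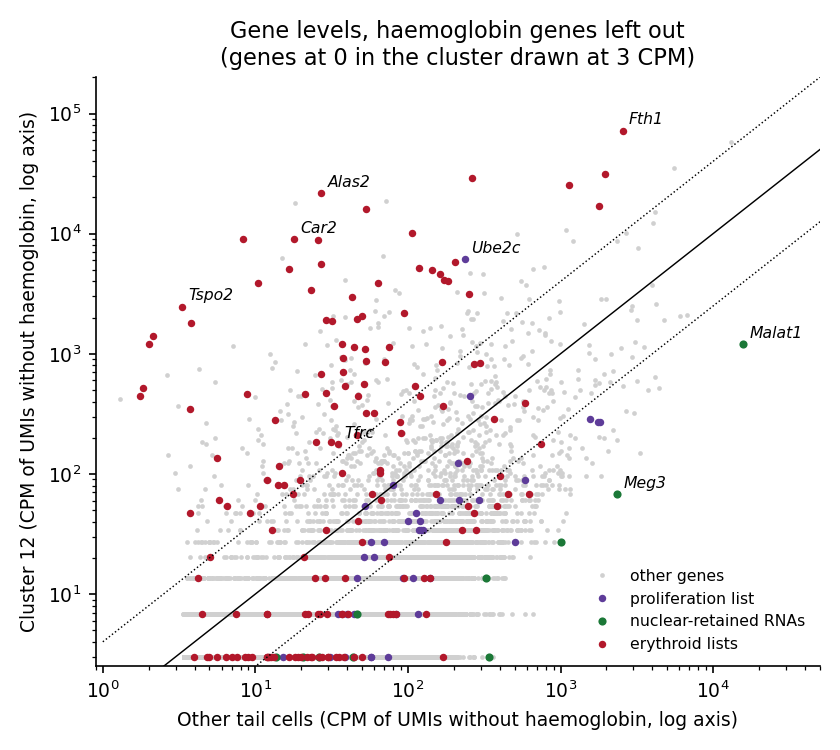
Each point is a gene with at least 100 UMIs, placed by its CPM in the other tail cells (x axis) and in cluster 12 (y axis), both on log scales with haemoglobin genes left out, with genes at 0 in the cluster drawn at 3 CPM, a solid line of equal level and dotted lines at 4-fold. Members of the erythroid lists (red) lie on both sides of the line, 74 of 163 at least 4-fold above it, as *Alas2* at 805-fold, and 23 at least 4-fold below, nuclear-retained RNAs (green) lie below it, and of the proliferation list (purple) only *Ube2c* lies above the upper dotted line.

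In the paragraphs on roles that follow, ratios are to the other tail cells with haemoglobin genes left out of the total, unless another total is named, and ratios with all UMIs are 7.02 times smaller, so that a ratio between 1 and 7.02 lies below the other tail cells on that total. The counts of each list stand against 2.38% of all genes tested at least 4-fold higher and 24.4% at least 4-fold lower on this total, and against 0.575% and 73% with all UMIs. *Gata1*, *Klf1*, *Hemgn*, *Sptb* and *Epor* had fewer than 100 UMIs over both groups and are in none of these counts, and their values are given as list members only. Among the 15 genes furthest above the other tail cells, ranked in this way without haemoglobin genes, were *Alas2*, *Tspo2*, *Trim10*, *Rhd*, *Car2*, *Slc4a1*, *Ube2l6*, *Slc25a37*, *Hba-ps4*, *Tent5c* and *Bpgm*. These ran from 805-fold (745 to 872) for *Alas2*, with 3196 UMIs, down to 305-fold (286 to 326) for *Bpgm*, with 2375. *Hba-ps4*, an alpha-globin pseudogene listed outside the haemoglobin genes here, had 62 UMIs, which near-identical alpha-globin reads could have given.

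Summed over the list, haem synthesis genes stood 38.1-fold (37.0 to 39.2) above the other tail cells, and 5.43-fold (5.28 to 5.59) with all UMIs as the total. *Alas2* alone gave 3196 of the 5561 UMIs of the list. The 17 genes of the list that were tested had 10 at least 4-fold higher and 2 at least 4-fold lower. Their median was 5.31 with genes at 0 set to the floor. On the total of all UMIs 4 were higher and 5 lower, with a median of 0.757. *Alas2*, the erythroid form of the first and rate-limiting enzyme, had 7 to 59 UMIs in every cell, with a median of 25, and was 805-fold higher (745 to 872). *Alas1*, the form used by most other tissues, had 0 UMIs in the cluster and 1118 in the other cells, a ratio of at most 0.537. *Fech*, which inserts iron at the last step, was 210-fold higher (190 to 232). *Fam210b*, a mitochondrial protein needed for iron delivery to that step, was 148-fold higher (131 to 166), and the mitochondrial carrier *Slc25a39* 60.7-fold (55.2 to 66.7). The cytosolic steps had smaller ratios, at 24.6-fold (20.4 to 29.4) for *Urod* and 14.1-fold (11.1 to 17.7) for *Alad*. *Tmem14c* and *Pgrmc1* were the 2 lower members, at 0.151 (0.0491 to 0.354) and 0.175 (0.0704 to 0.361).

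Of 26 iron and haem handling genes tested, 10 were at least 4-fold higher and 4 at least 4-fold lower, with a median of 2.87 with genes at 0 set to the floor and 0.675 with them kept at 0. With all UMIs as the total, 5 were higher and 11 lower. *Slc25a37*, mitoferrin 1, had 2 to 69 UMIs in every cell, with a median of 8, and was 349-fold higher (319 to 383). *Blvrb*, biliverdin reductase B, was 95.9-fold higher (90.1 to 102), and *Ncoa4*, the receptor that carries ferritin to lysosomes, 65.8-fold (57.3 to 75.3). The ferritin chains *Fth1* and *Ftl1* were among the most abundant RNAs, with 7.22% and 3.14% of the UMIs without haemoglobin, and were 28.3-fold (27.7 to 28.9) and 16.1-fold (15.7 to 16.6) higher.

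*Tfrc*, the transferrin receptor, had 26 UMIs in 6 of 128 cells, 21 of them in 1 cell. It was 5.07-fold (3.30 to 7.47) the level of the other tail cells with that cell and 1.01-fold (0.328 to 2.37) without it. After thinning to 500 UMIs without haemoglobin it was found in 2.36% of cluster cells (0.490 to 6.75) and 1.61% of the others (1.10 to 2.28), and after thinning to 3000 UMIs of all genes in 2.40% (0.498 to 6.85) and 7.17% (6.03 to 8.45), the opposite direction. *Hmox1*, which degrades haem, was at 0 in the cluster, and after thinning to 500 UMIs it was found in 0 of 127 cells, with an upper Clopper-Pearson bound of 2.86%. In cluster 6 it had 321 UMIs and was found in 27 of 71 cells after the same thinning. Outside both blood clusters it was found in 14 of 1853 cells (0.756%), which lies below the bound for cluster 12. Thinned to 3000 UMIs of all genes, it was found in 0 of 125 cells of cluster 12, with a bound of 2.91%. The share outside both clusters was then 4.04% (3.17 to 5.06). *Slc40a1*, the iron exporter, was at 0 as well, with 251 UMIs in all other tail cells.

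Red cell membrane and skeleton genes had 15 of 25 tested at least 4-fold higher and 1 lower, with a median of 7.39. The counts were 9 higher and 8 lower on the total of all UMIs, with a median of 1.05. *Slc4a1*, the band 3 anion exchanger, was 474-fold higher (378 to 597), the Rhesus protein gene *Rhd* 607-fold (450 to 829) and *Tspo2*, an erythroid cholesterol carrier, 751-fold (599 to 949). After thinning, *Slc4a1* was found in 49 of 127 cluster cells, in 10 of 71 cells of cluster 6 and in 2 of the 1853 cells outside both. *Sptb*, beta-spectrin, was 154-fold higher (89.9 to 262) on 27 UMIs in the cluster and 35 in the other cells. *Ank1*, the ankyrin that ties band 3 to spectrin, had 13 UMIs and was 7.39-fold higher (3.90 to 12.8). *Aqp1*, *Cd44* and *Slc2a4* were at 0.

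**Figure D4:**
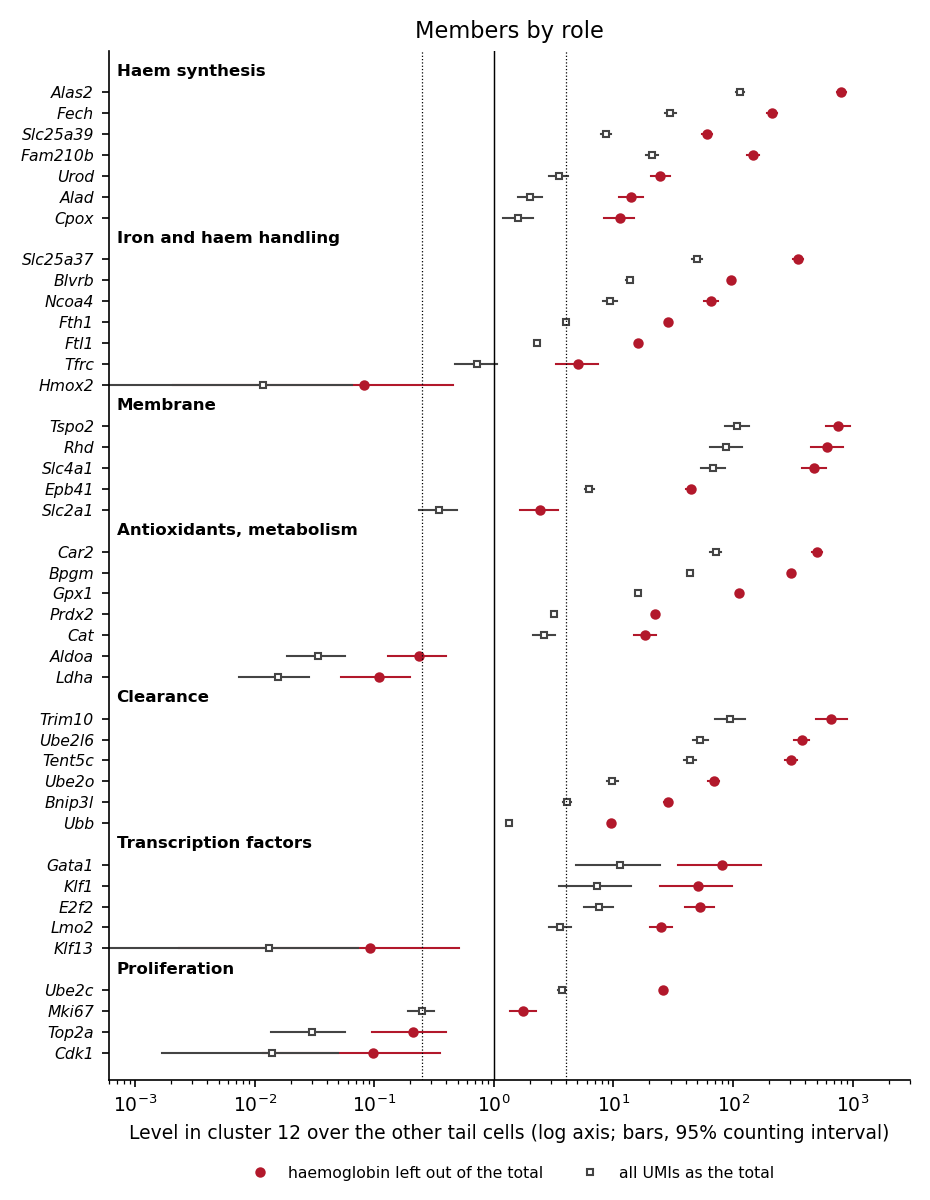
Level of named list members in cluster 12 over the other tail cells (x axis, log scale), with haemoglobin genes left out of the total (filled circles) or with all UMIs as the total (open squares), and 95% counting intervals as bars. Dotted lines mark 4-fold in either direction. *Alas2*, *Tspo2* and *Trim10* lie furthest right, and *Ldha*, *Cdk1* and *Klf13* lie left of 0.25 on both totals.

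Of 23 antioxidant and red cell metabolic genes tested, 12 were at least 4-fold higher, against 2.38% of all genes, and 7 at least 4-fold lower, a share near the 24.4% of all genes. With all UMIs as the total, 5 were higher and 11 lower. *Gpx1*, glutathione peroxidase 1, was 112-fold higher (108 to 116), *Prdx2*, peroxiredoxin 2, 22.3-fold (21.5 to 23.0) and catalase (*Cat*) 18.5-fold (14.98 to 22.7). *Bpgm*, which makes the 2,3-bisphosphoglycerate that tunes oxygen release, was 305-fold higher (286 to 326), and *Car2*, carbonic anhydrase 2, 501-fold (453 to 555).

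Some glycolytic enzymes of this list had few UMIs. *Ldha* had 10 UMIs at 0.109 (0.0523 to 0.201), *Pgk1* 5 UMIs at 0.121 (0.0394 to 0.284), *Tpi1* 10 UMIs at 0.150 (0.0717 to 0.275) and *Gpi1* 4 UMIs at 0.154 (0.0420 to 0.395), and of these 4 intervals only that of *Ldha* lay wholly below 0.25. *Pklr*, the red cell pyruvate kinase, had 2 UMIs in the cluster and 0 in all other tail cells. *Hemgn*, a nuclear regulator of erythroid genes, had 21 UMIs in the cluster and 11 in the other cells, a ratio of 382 (176 to 877).

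Genes of the ubiquitin system, of autophagy and of nuclear expulsion had 19 of 32 tested at least 4-fold higher and 1 lower, with a median of 5.54. The total of all UMIs gave 6 higher and 9 lower, with a median of 0.790. *Trim10*, an erythroid ring-finger protein, was 661-fold higher (496 to 890), the ubiquitin-conjugating enzymes *Ube2l6* and *Ube2o* 374-fold (325 to 431) and 68.7-fold (61.5 to 76.7), and *Tent5c*, a poly(A) polymerase, 305-fold (272 to 343). *Bnip3l*, the receptor for clearance of mitochondria in reticulocytes, had 0 to 13 UMIs, with a median of 5, and was 28.7-fold higher (26.4 to 31.1). The autophagy genes *Gabarapl2* and *Map1lc3b* were 34.8-fold (32.1 to 37.6) and 12.6-fold (11.4 to 13.8) higher. *Ubb*, a polyubiquitin gene, was 9.45-fold higher (9.07 to 9.83).

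Erythroid transcription factors were low in UMIs. Of 20 tested, 7 were at least 4-fold higher, against 2.38% of all genes, and 4 at least 4-fold lower, near the 24.4% of all genes. Their median was 2.67 with genes at 0 set to the floor and 0.761 with them kept at 0. On the total of all UMIs 1 was higher and 9 lower. *Gata1* had 10 UMIs in the cluster and 25 in the other cells and *Klf1* 12 and 47, in 7.03% and 5.47% of cluster cells, which was 80.0-fold (34.3 to 173) and 51.1-fold (24.7 to 97.8) above the other cells. *Lmo2* had 99 UMIs, 25.04-fold higher (20.1 to 30.9), *E2f2* 68 UMIs, 52.7-fold (39.8 to 69.1), and *Foxo3* 27 UMIs, 7.38-fold (4.83 to 10.8). *Gata2*, *Myb* and *Spi1*, factors of earlier progenitors, were at 0, but at this depth a gene at 0 could count as 4-fold lower only where the other cells held at least 81.5 CPM, which these did not. *Bcl11a*, which represses embryonic globin genes in definitive cells, had 2 UMIs.

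Receptors and signalling genes of erythropoietin and Kit had 3 of 22 tested at least 4-fold higher, against 2.38% of all genes, and 4 at least 4-fold lower, against 24.4%. Of the 22, 12 were at 0, so their median was set by the floor. Only 1 was higher, and 16 were lower, with all UMIs as the total. *Epor* had 1 UMI, and *Kit*, the stem cell factor receptor, *Stat5a* and *Stat5b* had none. The anti-apoptotic *Bcl2l1* had 176 UMIs, 32.5-fold higher (27.5 to 38.1), and the kinase gene *Pim1* 83, 11.0-fold (8.70 to 13.7).

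Summed proliferation genes apart from *Ube2c* were below the other tail cells on either total. With all UMIs as the total, the list stood at 0.124 (0.117 to 0.131) of the other tail cells and 37 of 38 genes were at least 4-fold lower, against 73% of all genes. With haemoglobin left out 14 of 38 were at least 4-fold lower, against 24.4% of all genes, and 1, *Ube2c*, higher. The list then stood at 0.869 (0.821 to 0.919), of which *Ube2c* gave 902 of 1233 UMIs. Without *Ube2c* the list stood at 0.239 (0.214 to 0.266), with 331 UMIs. *Ube2c*, which encodes an enzyme that helps the anaphase-promoting complex end mitosis, had 0 to 184 UMIs per cell with a median of 3.5, was found in 84.4% of cells and was 26.1-fold higher (24.3 to 27.98). After thinning it was found in 70.9% of cluster cells (62.1 to 78.6), in 5.63% of cluster 6 (1.56 to 13.8) and in 6.96% of all other tail cells (5.87 to 8.20). Without the 2 cells with over 700 genes, *Ube2c* was still 21.9-fold higher (20.2 to 23.7).

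*Mki67*, a marker of cycling cells, had 66 UMIs, of which 20 and 18 lay in those 2 cells, and was found in 13.4% of cells (7.995 to 20.6) after thinning, against 7.69% (6.54 to 8.97) of the other tail cells. Thinned to 3000 UMIs of all genes, the direction was opposite, with 4.8% of cluster cells (1.78 to 10.2) and 21.1% of the others (19.2 to 23.0). Its ratio was 1.75 (1.35 to 2.23) with these cells and 0.792 (0.526 to 1.15) without them. *Top2a*, which untangles replicated DNA, was found in 3.15% of cells (0.865 to 7.87), against 7.48% (6.35 to 8.75) of the others. *Cdk1*, the mitotic kinase, had 2 UMIs, and *Pcna*, *Mcm5* and *Gins2*, of DNA replication, had none. Of 12 inhibitors of the cell cycle tested, 1 was at least 4-fold higher and 4 at least 4-fold lower. Scaled to all UMIs, 1 was higher and 10 were lower. *Gadd45a* was 29.5-fold higher (22.8 to 37.8). *Cdkn1c*, with 98011 UMIs in the other cells, had 22 in the cluster, a ratio of 0.0449 (0.0281 to 0.0680).

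Of 10 RNAs that are kept in the nucleus, 6 were at least 4-fold lower, against 24.4% of all genes, and none at least 4-fold higher. *Malat1*, a long noncoding RNA of nuclear speckles, had 178 UMIs, 84 of them in the cell with 1573 genes and at most 4 in any other, with a median of 0.5 per cell. In cluster 6 its median was 102 UMIs. After thinning it was found in 37.0% of cluster cells (28.6 to 46.0), against 93.0% (84.3 to 97.7) of cluster 6 and 93.0% (91.7 to 94.1) of all other tail cells. Its ratio was 0.0765 (0.0657 to 0.0886) and, without the 2 cells with over 700 genes, 0.0430 (0.0348 to 0.0526). *Meg3*, *Kcnq1ot1* and *Rian* were at 0.0288, 0.0269 and 0.0418 with 10, 4 and 2 UMIs, and *Xist* and *Neat1* were at 0. *Xist* had 10045 UMIs in the other tail cells, so its ratio was at most 0.0598.

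Genes at 0 were ranked at their floor of 3 counts and so behind genes with 1 UMI and a like level in the other cells, and each of the 15 genes ranked furthest below the other tail cells had 1 UMI in the cluster. Among them were *Gpc3*, *Nfib*, *Ccnd2*, *Col4a1*, *Ankrd11*, *Hnrnpr*, *Egr1*, *Erp29*, *Lmnb1*, *Tm9sf3*, *Ncam1*, *Nisch*, *Ctsl* and *Pcm1*. Their ratios ran from 0.0102 (0.000259 to 0.0571) for *Gpc3* to 0.0239 (0.000606 to 0.133) for *Pcm1*. Their order therefore follows their level in the other cells. *Lmnb1* encodes a lamin of the nuclear envelope, and *Hnrnpr* encodes an RNA-binding protein of the nucleus.

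Mitochondrial RNA was above or below the other tail cells depending on the total, and was divided between ribosomal and messenger RNA. Genes of the mitochondrial genome took 7.37% of UMIs without haemoglobin (7.23 to 7.501) in the cluster, 3.07% (3.06 to 3.07) in the other tail cells and 2.58% (2.52 to 2.63) in cluster 6. Per cell the share ran from 1.47% to 14.0%. With all UMIs as the total the direction was opposite, with a median share per cell of 0.879% in the cluster and 3.05% in the other tail cells. The summed ratio was then 0.342 (0.336 to 0.349), in place of 2.40 (2.36 to 2.45), and 12 of 15 genes were at least 4-fold lower, against 73% of all genes. Leaving haemoglobin out, 1 of the 15 was at least 4-fold higher and 1 at least 4-fold lower, with a median of 0.785. The ribosomal RNAs *mt-Rnr2* and *mt-Rnr1* gave 91.1% of the mitochondrial UMIs (90.6 to 91.6) in the cluster, 50.4% (50.3 to 50.5) in the other tail cells and 61.9% (60.8 to 62.9) in cluster 6. Without these 2 genes the share of UMIs without haemoglobin was 0.654% (0.614 to 0.697) in the cluster, below the 1.52% (1.52 to 1.53) of the other tail cells. With haemoglobin left out *mt-Rnr2* was 4.46-fold higher (4.36 to 4.55), against 0.635 (0.622 to 0.649) on the total of all UMIs. On the total without haemoglobin *mt-Cytb*, of the respiratory chain, stood at 0.335 (0.298 to 0.375) and *mt-Nd2* at 0.211 (0.167 to 0.262). *mt-Co1* stood apart from these at 1.80 (1.57 to 2.06).

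Ribosomal protein genes took 5.35% of UMIs without haemoglobin (5.24 to 5.47) in the cluster, against 7.24% (7.23 to 7.25) in the other tail cells and 8.32% (8.23 to 8.42) in cluster 6. Per cell they ran from 1.52% to 24.9%, with a median of 4.49%. With haemoglobin left out, 18 of 86 tested were at least 4-fold lower, a share near the 24.4% of all genes. None was at least 4-fold higher, and their median, with genes at 0 set to the floor, was 0.444. On the total of all UMIs, 81 of the 86 were at least 4-fold lower, against 73% of all genes, and none higher. Their median, with the same floor, was then 0.0633.

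The 2 blood clusters differed in more than globin type. Between clusters 12 and 6, 108 of 548 genes with at least 100 UMIs over both (19.7%) were at least 4-fold higher in cluster 12 and 183 (33.4%) at least 4-fold lower, with haemoglobin left out. Of 62 erythroid list genes tested, 41 (66.1%) were higher and 5 (8.06%) lower. Cluster 6 held 15 cells with over 1000 genes. Against its 56 other cells, 27 of 49 erythroid genes (55.1%) were higher, where 32.8% of all genes were, and 2 (4.08%) lower, where 10.9% were. *Slc25a37* was 17.3-fold, *Gpx1* 14.0-fold and *Alas2* 13.5-fold above cluster 6 as a whole, whereas *Fth1* stood at 0.856 and *Ftl1* at 1.30. Against the 56 cells alone, *Slc25a37* was 110-fold, *Gpx1* 17.6-fold and *Alas2* 9.85-fold higher, *Fth1* stood at 0.321 and *Ftl1* at 0.540.

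Within the cluster, cells were ranked by haemoglobin share and split into groups of 43, 43 and 42 cells, with shares of 51.5 to 86.1%, 86.1 to 89.1% and 89.4 to 93.1%. Median total UMIs per cell were alike, at 8500, 8714 and 7931. UMIs without haemoglobin had medians of 1493, 1054 and 739.5 and detected genes of 415, 341 and 254.5. The first group held both cells with over 700 genes and the 5 cells below 70% haemoglobin, and the values that follow include them. All genes that follow are given as shares of the UMIs without haemoglobin, and all points share 1 library, so the correlations are descriptions across 128 cells. Of 180 genes with at least 100 UMIs, 42 had a Spearman correlation with haemoglobin share below -0.3 and 17 above 0.3.

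Among the 10 most negative were *Urod* (-0.68), *Car2* (-0.67), *Gpx1* (-0.67), *Trim10*, *Cmas*, *Mt1* and *Top1* (-0.55). From the group lowest to that highest in haemoglobin share, *Gpx1* went from 37373 to 13545 CPM, a ratio of 0.362 (0.326 to 0.402), and *Car2* from 13463 to 1278 CPM, a ratio of 0.0949 (0.0674 to 0.130). *Slc4a1* was at 0.138 (0.0703 to 0.247) in the same comparison. *Urod*, of a middle step of haem synthesis, was at 0.0390 (0.00467 to 0.144).

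The 10 most positive were *Ftl1* (0.77), *Gm42418* (0.65), *Alas2* (0.60), *Mir6236*, *Atp5e*, *Rpl41*, *Lars2*, *Cox6c*, *Fam220a* and *Bola3* (0.41). *Gm42418* is a gene model that overlaps a ribosomal RNA repeat. *Ftl1* went from 18529 to 56927 CPM, a ratio of 3.07 (2.86 to 3.30), and *Alas2* from 16936 to 30955 CPM, a ratio of 1.83 (1.68 to 1.99). *Fech* and *Slc25a39* were at 1.54 (1.30 to 1.82) and 1.95 (1.59 to 2.38), both higher in the cells with more haemoglobin. *Bpgm* at 1.15 (1.03 to 1.28) and *Slc25a37* at 1.14 (0.988 to 1.31) differed little between the groups. *Bnip3l* was at 1.51 (1.24 to 1.82).

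**Figure D5:**
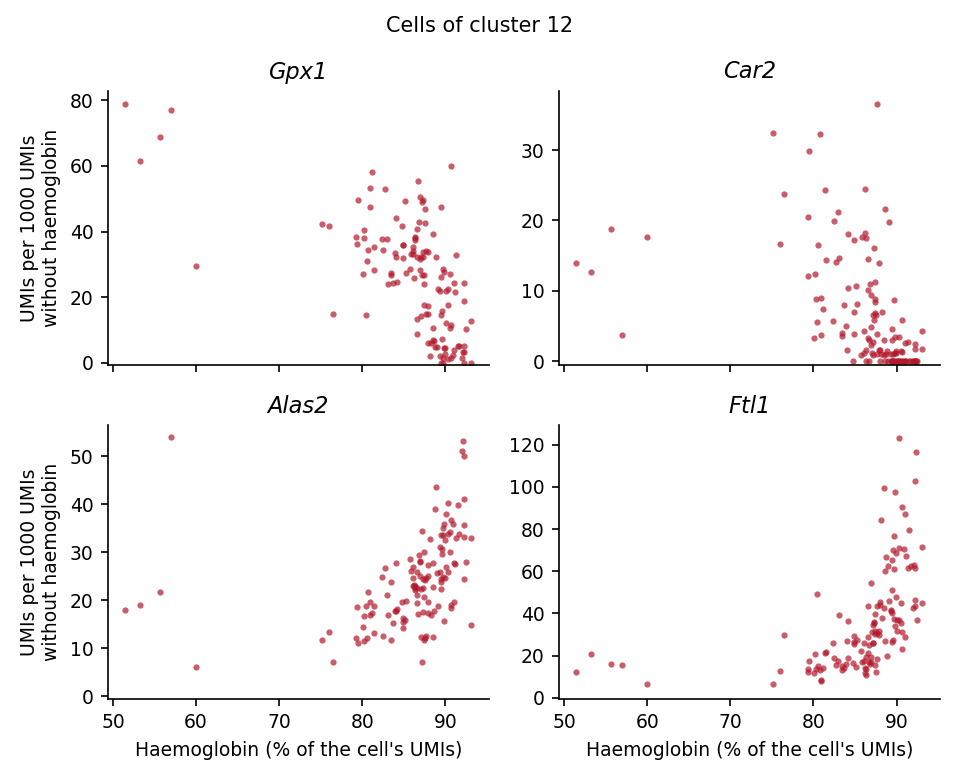
Each point is 1 of the 128 cells of cluster 12, placed by the haemoglobin percent of its UMIs (x axis) and by UMIs of the gene per 1000 UMIs without haemoglobin (y axis). *Gpx1* and *Car2* are lower, and *Alas2* and *Ftl1* higher, in cells with more haemoglobin, with Spearman correlations of -0.67, -0.67, 0.60 and 0.77.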

How the data were processed

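Single-cell RNA of 3 libraries, 1 per group, was measured with the 10x Genomics Chromium 3′ v3 kit. The deposited tables hold whole-number UMI counts per gene and cell, which the authors made with Cell Ranger, ignoring reads that map to several places, and clustered with Seurat 3.0 (tools per the submitters' processing notes) after filtering cells on mitochondrial share, genes and UMIs. The genome build of these counts is not given in the sources used here. Cluster codes were taken from the first row of the tail table, whose clustering drew on the same counts. Depth was 1061961 UMIs over the cluster and 30281780 over the other tail cells; the floor of 3 counts in the cluster is 20.4 CPM without haemoglobin genes.

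Counts were summed over cells and divided by all UMIs or by UMIs without the 11 haemoglobin genes listed in the file (Python 3.11.15, NumPy 2.4.6, SciPy 1.17.1). Genes needed 100 UMIs over both groups to enter a count of genes tested or a median; list members below that are given as values only. A group at 0 was set to a floor of 3 counts, a bound on the far side of 1 gave no ratio, and calls were at 4-fold. Intervals were exact at 95% (Poisson for levels, conditional binomial for ratios, Clopper-Pearson for shares) and cover counting error only; no test was run with 1 library. Named genes were members of the lists, the 15 genes furthest in each direction with at least 50 CPM in the higher group, and the 10 of either sign of correlation within the cluster. Listed genes such as *Ahsp* that the table lacks under that symbol were not analysed here. Members and lists were chosen with earlier results of these data known. Shares of cells with a UMI were taken after thinning each cell to 500 UMIs without haemoglobin genes, which left out 1 cell of the cluster. Scrublet in Scanpy 1.11.5 called 9 tail cells doublets (0.439%), none in the cluster, too few against an expected 6% for the calls to be used; cells were kept. The tail shared 4 barcodes with the D10 culture and 3 with D6 PM, 0 and 1 of them in the cluster. Ratio and interval code was tested on simulated data. Alternatives were the other total, other cells, weights, folds and filters. Some genes that the rule names are not reported here.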

Additional observations from a re-analysis of the deposited data

How the results depend on the processing

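Of 55 values recomputed under another setting, 26 stayed within their interval or within 1.5 times the count and 29 moved. With haemoglobin genes left out of the total, the genes at least 4-fold higher numbered 315 in place of 76, those lower 3229 in place of 9645 and the erythroid genes higher 74 in place of 31, and the proliferation ratio was 0.869 in place of 0.124. At 2-fold, 134 genes and 49 erythroid genes were higher, and with no filter on low counts 183 genes were. As medians over cells, the haemoglobin share was 87.3%, the embryonic share 0.0237%, the mitochondrial share 7.18% and the ribosomal protein share 4.49%. Dropping cells under 1000 genes left 1 of 128 cluster cells, with a haemoglobin share of 60.0%, an embryonic share of 0.0159%, 346 genes higher and 174 lower, 65 erythroid genes higher, a mitochondrial share of 4.45%, a ribosomal share of 2.31% and a proliferation ratio of 0.360.

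The settings that follow were chosen after seeing the data. Without the 2 cells with over 700 genes, the haemoglobin share was 86.6%, the mitochondrial share 7.61%, the ribosomal share 5.51% and the proliferation ratio 0.0974. The embryonic share was 0.0323% without the cell richest in *Hbb-bh1*. With the interval wholly past 4-fold, 226 genes were higher, 599 lower and 61 erythroid genes higher. The mitochondrial share was 0.654% without the ribosomal RNAs, below the 1.52% of the other tail cells where the share with them, 7.37%, lay above their 3.07%, and the proliferation ratio 0.239 without *Ube2c*. No paired analysis was possible because each group had 1 library and no test was run. The depth limits lower calls: 339 tested genes at 0 in the cluster stood above the 81.5 CPM that a lower call needs.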

Other observations

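Outside both blood clusters, 19 tail cells in 8 clusters had more than 5% of their UMIs in haemoglobin genes, up to 45.3%, with a median of 5062 detected genes. In 14 of them embryonic genes made up less than 10% of the beta-like globin UMIs, at most 0.129%, and in the other 5 more than 50%, at least 91.6%. No such cell lay between these values. None of the 128 cells of cluster 12 was above 10%, and in cluster 6 the cells divided into 7 below 10% and 64 above 50%.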
